A study of Mus musculus with 2 samples.

Results

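The genes that encode the NF-κB transcription factor subunits and their inhibitors were read in nucleoplasmic RNA, that of the soluble nuclear contents, from Lipid A-stimulated mouse macrophages grown from bone marrow. The set held 10 of the 55536 annotated genes of the deposited tables, found by a list of symbols: the 5 inhibitor genes Nfkbia, Nfkbiz, Nfkbie, Nfkbid and Nfkbib and the 5 Rel subunit genes Nfkb1, Nfkb2, Rel, Relb and Rela. All 10 symbols were found in both libraries. The cells were primary macrophages of the strain C57BL/6J that had received 100 ng/ml Lipid A, the TLR4-binding anchor of lipopolysaccharide, for 60 min. RNA of their nucleoplasmic fraction was sequenced after removal of ribosomal RNA. This single group comprised 2 biological replicates under 1 donor label, with neither age nor sex collected, and spread among animals may exceed the spread between these replicates. The library of replicate 1 was made from 1 µg of RNA and that of replicate 2 from 500 ng. Unstimulated cells, other times and other fractions were not analysed here, so the values are levels in stimulated cells and carry no change with the stimulus.

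NF-κB proteins are dimers of subunits that share the Rel homology domain. In resting macrophages the IκB inhibitors hold these dimers in the cytoplasm. Signalling through TLR4 activates the IκB kinases, the phosphorylated inhibitors are ubiquitinated and degraded, and the freed dimers enter the nucleus. Several inhibitor genes are themselves well-known NF-κB targets, and the resynthesised inhibitors help to end the response. Others, the nuclear or atypical IκB proteins, act on dimers that are already bound to DNA.

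The libraries held 21115765 estimated counts on annotated genes in replicate 1 and 15607391 in replicate 2. The 10 genes took 118687 and 74227 of these, which were 0.562% and 0.476%. All 7 macrophage markers on the list, among them Adgre1, Csf1r and Lyz2, reached at least 10 in units of TPM, the length-corrected share of a library, in replicate 1 and in replicate 2. The summed TPM in replicates 1 and 2 was 0.42 and 0.45 for 5 B-cell markers, 0.48 and 0.02 for 5 T-cell markers, 2.57 and 3.0 for 5 dendritic-cell markers, and 4.69 and 2.72 for 7 neutrophil markers. In the gene table, the B-cell marker Cd79a was at 0 in both libraries, as were 4 of the 5 T-cell markers, all but Lck. The second transcript table, a separate deposited estimate of the same libraries, listed one of these 4, Cd3d, at 2.80 and 4.07 TPM. In bulk RNA of this kind, the number of cells and the RNA per cell cannot be told apart.

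All 10 genes were well detected. Each was at or above 10 TPM in both libraries, as were 14.4% of the 22015 protein-coding genes of the nuclear genome. At least 100 TPM in both libraries was reached by 3 of the 10, Nfkbia, Nfkbiz and Nfkb1, and by 1.39% of the protein-coding genes.

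Among the inhibitors, Nfkbia encodes IκBα, the inhibitor that is degraded fastest and resynthesised first after TLR4 signals. It had 721 TPM in replicate 1 and 377 TPM in replicate 2, a mean of 549 ± 243 (SD, n = 2). In each library it was the highest of the 10, and among the protein-coding genes it ranked 27th in replicate 1 and 48th in replicate 2. In CPM, counts scaled to the library total with no correction for gene length, Nfkbia was in place 2 in replicate 1 and place 4 in replicate 2, with Nfkbiz in place 1 in both. The gene lies on chromosome 12 from 55489410 to 55492647 on the minus strand (mm10, as for all coordinates here).

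Nfkbiz encodes IκBζ, a nuclear inhibitor family member that is also a coactivator of a later set of genes such as Il6. Its TPM was 367 in replicate 1 and 251 in replicate 2, a mean of 309 ± 82.1 (SD, n = 2). It ranked 81st and 85th among the protein-coding genes. Its values in both libraries lay below both values of Nfkbia.

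Nfkbie encodes IκBε, a cytoplasmic inhibitor known for its later resynthesis. Its TPM was 129 in replicate 1 and 75.4 in replicate 2, a mean of 102 ± 37.9 (SD, n = 2). Nfkbid encodes IκBNS, a nuclear IκB protein that in mouse macrophages represses some inflammatory genes. Nfkbid had 87.4 TPM in replicate 1 and 63.7 TPM in replicate 2, a mean of 75.6 ± 16.8 (SD, n = 2). Nfkbib encodes IκBβ, a slowly degraded cytoplasmic inhibitor. Nfkbib was the lowest inhibitor, with 63.8 TPM in replicate 1 and 46.4 TPM in replicate 2 and a mean of 55.1 ± 12.3 (SD, n = 2). Across the libraries the values of these 3 inhibitors overlapped between neighbours, and all lay under those of Nfkbiz. Within each library Nfkbie was above Nfkbid and Nfkbid above Nfkbib.

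Of the subunits, Nfkb1 encodes p105, the precursor of the DNA-binding subunit p50. Its gene TPM was 267 in replicate 1 and 198 in replicate 2, a mean of 232 ± 48.2 (SD, n = 2). It ranked 137th and 130th among the protein-coding genes. Nfkb2 encodes p100, the precursor of p52 and itself an inhibitor of the noncanonical branch. Nfkb2 had 141 TPM in replicate 1 and 88.8 TPM in replicate 2, a mean of 115 ± 36.8 (SD, n = 2). Both values of Nfkb1 lay above both values of Nfkb2.

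The other subunits carry a transactivation domain. Rel encodes c-Rel, which drives cytokine genes such as Il12b in macrophages, and had 106 TPM in replicate 1 and 81.7 TPM in replicate 2, a mean of 94.0 ± 17.4 (SD, n = 2). Relb encodes the partner of p52 and had 71.6 and 38.9, a mean of 55.2 ± 23.1 (SD, n = 2). Rela encodes p65, the main transactivating subunit of the canonical branch. It was the lowest of the 10 genes in each library, with 46.6 TPM in replicate 1 and 32.8 TPM in replicate 2 and a mean of 39.7 ± 9.77 (SD, n = 2). It ranked 1045th and 1070th among the protein-coding genes.

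**Figure D1:**
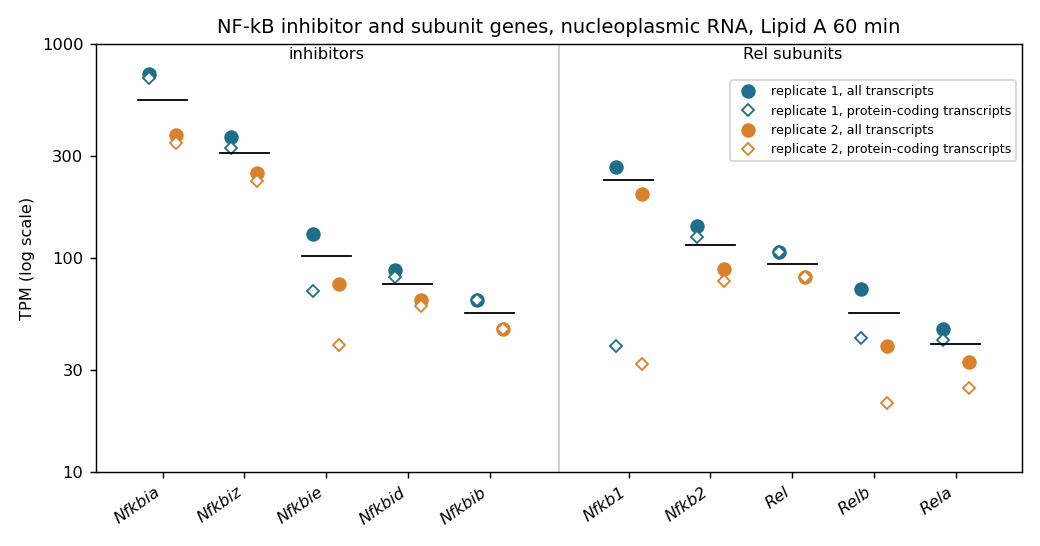
TPM of each gene on a log axis in replicates 1 and 2, inhibitors on the left and Rel subunits on the right. Filled circles are the gene TPM, open diamonds the part on protein-coding transcripts, and bars the mean gene TPM over both replicates. Nfkbia, at 721 and 377, and Nfkbiz, at 367 and 251, stand at the top, and for Nfkb1 the coding part, at 38.8 and 31.9, lies far under the gene TPM of 267 and 198.

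The plot of levels shows a steep top and a crowded lower part. Of the 9 pairs of neighbours in the order by mean TPM, 2 did not overlap between libraries, Nfkbia over Nfkbiz and Nfkb1 over Nfkb2. The gap of 240 TPM between the means of Nfkbia and Nfkbiz was still slightly smaller than the SD of Nfkbia, while the gap of 118 TPM between those of Nfkb1 and Nfkb2 exceeded the SD of each. The other 7 pairs overlapped in TPM between libraries. The second transcript table was closer between replicates and held both steps, with 335 and 290 TPM for Nfkbia over 165 and 144 for Nfkbiz, and 118 and 122 for Nfkb1 over 64.1 and 58.6 for Nfkb2. In the first table, 7 of the 9 pairs had an order that held in both libraries, and the exceptions were Nfkbie against Rel and Relb against Nfkbib. TPM also carries a shift between the libraries, given below. Rescaled over protein-coding genes, Nfkbiz at 1443 and 1334 lay above Nfkb1 at 1048 and 1055. Rel at 418 and 435 lay above Nfkbid at 344 and 339, and Nfkbid above Relb at 282 and 207. Nfkbib at 251 and 247 lay above Rela at 183 and 174. Among the lower inhibitors, Nfkbie at 508 and 401 lay above Nfkbid, and Nfkbid above Nfkbib. Nfkb2 and Nfkbie, Nfkbie and Rel, and Relb and Nfkbib still overlapped. The order depends in part on the length correction, since 2 of the 10 genes kept their place in CPM. Rel moved most, from place 6 to place 3, and every other gene that moved went to a neighbouring place.

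The 5 inhibitor genes together had 1368 TPM in replicate 1 and 813 TPM in replicate 2, set against 632 and 441 TPM for the 5 subunit genes. The inhibitor sum was thus 2.17 times the subunit sum in replicate 1 and 1.85 times in replicate 2, a mean of 2.01 ± 0.226 (SD, n = 2). In CPM it was 1.22 and 1.06 times the subunit sum. Most of the inhibitor sum came from a pair of genes. Nfkbia and Nfkbiz made up 79.5% and 77.2% of the inhibitor sum, and Nfkbia alone 52.7% and 46.3% (36.1% and 29.5% in CPM). Nfkb1 made up 42.2% and 45.0% of the subunit sum, while Rela made up 7.38% and 7.44%.

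How the typical genes of the classes compared depended on the measure. The median of log2(TPM + 1) over the inhibitors was 6.64 ± 0.54, and over the subunits 6.56 ± 0.27 (SD, n = 2 each). Inhibitors minus subunits, the difference of the medians within a library was 0.28 in replicate 1 and -0.11 in replicate 2. Its mean of 0.08 ± 0.28 (SD, n = 2) was smaller than its spread between replicates. The mean of the members in place of the median gave a difference of 0.73 ± 0.05, and medians in CPM turned the direction, at -0.41 ± 0.06 (SD, n = 2 each). The 2 libraries form 1 group, so there was no comparison of conditions to test and p-values are not reported.

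The gene TPM sums all annotated transcripts of a gene, and in nuclear RNA these differ in kind. GENCODE labels a transcript as retained intron where it keeps intron sequence of a coding transcript and has no annotated coding sequence. The label is one of annotation, and retained introns were not told apart here from RNA not yet spliced. An annotated transcript without a coding label exists for 8 of the 10 genes. Nfkbib, with 3 transcripts, and Rel, with 1, have coding transcripts only, so reads from their introns had no transcript of the gene to be counted on.

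Nfkb1 stood out by its transcripts. Retained-intron transcripts held 82.1% of its TPM in replicate 1 and 76.7% in replicate 2, while its protein-coding transcripts held 14.6% and 16.1%. Among the 2797 protein-coding genes with at least 10 TPM in both libraries and a transcript of another type, the median retained-intron share was 25.0% and 23.4%. Nfkb1 lay at percentile 98.9 of these genes in replicate 1 and 97.6 in replicate 2. The 2797 include genes with no retained-intron transcript, such as Nfkbiz, whose share of 0 lowers the median and raises the percentiles. Of the 10 genes, 8 are among the 2797, all but Nfkbib and Rel. A share of at least 50% in both libraries was found for 1 of these 8, Nfkb1, and for 14.4% of the 2797. The second transcript table gave 77.1% and 72.5% for Nfkb1.

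Nfkbie and Relb followed. Nfkbie had a retained-intron share of 45.8% in replicate 1 and 48.1% in replicate 2. Relb had 30.04% and 38.2%. Against the 2797 genes, Nfkbie lay at percentiles 79.1 and 81.8 and Relb at 58.1 and 70.2. Rela had 10.02% and 21.2%, at percentiles 29.7 and 46.4. The shares were 3.81% and 8.04% for Nfkbia (percentiles 22.8 and 28.8), 7.57% and 7.39% for Nfkb2 (27.2 and 28.1), and 7.08% and 5.98% for Nfkbid (26.5 and 26.2). In the second table they were higher, at 17.4% and 23.7% for Nfkbia, 13.3% and 10.5% for Nfkb2, and 11.6% and 10.4% for Nfkbid. Nfkbiz had no retained-intron transcript, and 11.1% and 8.28% of its TPM was on the processed transcript Nfkbiz-205.

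**Figure D2:**
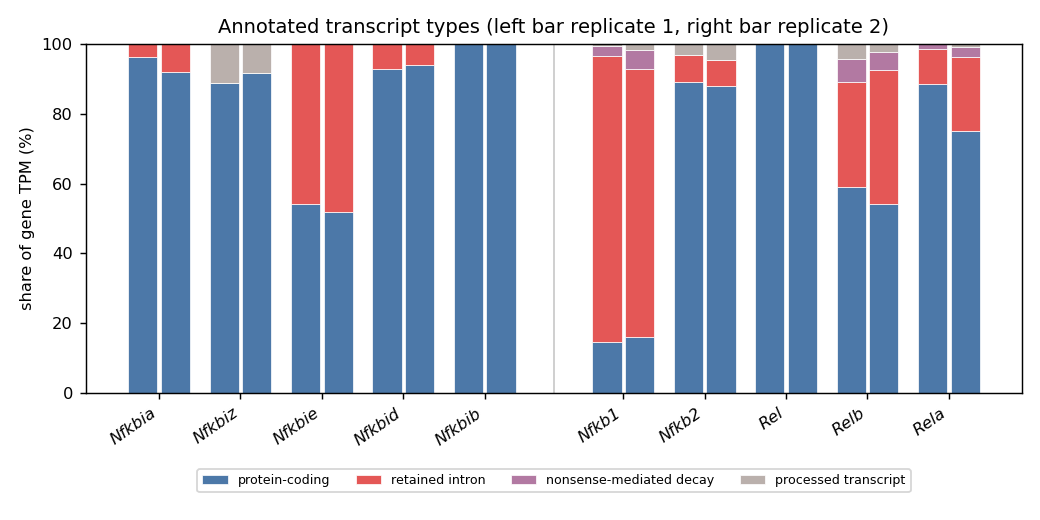
Share of gene TPM in percent by annotated transcript type, with replicate 1 as the left bar and replicate 2 as the right bar of each gene, inhibitors on the left and Rel subunits on the right. Nfkb1 is mostly retained-intron transcripts, at 82.1% and 76.7%, Nfkbie at 45.8% and 48.1%, and Nfkbib and Rel are wholly protein-coding.

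The Nfkb1 gene lies on chromosome 3 from 135584655 to 135691547 on the minus strand, and 4 of its 10 annotated transcripts are of the retained-intron type. The highest, Nfkb1-204, had 99.1 TPM in replicate 1 and 67.3 TPM in replicate 2. It has 12 exons, and its last exon runs on past the 5′ splice site of intron 10 of the coding transcript Nfkb1-206. This extension covers 44.3% of that intron, and 53.9% of the transcript's 3383 bases are intronic.

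The next 2 transcripts were almost wholly intronic. Nfkb1-208 is a single exon of 4149 bases, 96.1% of them in introns 5 and 6, and had 44.1 TPM in replicate 1 and 34.7 TPM in replicate 2. Nfkb1-210 is a single exon of 2001 bases, 92.9% of them in introns 13 and 14, and had 42.9 and 33.9. Nfkb1-202, which carries 13 exons and only 7.46% intron sequence, had 32.8 and 16.2. Of the 23-exon coding transcript Nfkb1-206, the TPM was 20.2 and 16.7, and of the shorter coding Nfkb1-203 it was 18.4 and 15.1.

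Transcripts made of intron sequence were assigned with little ambiguity by the estimate itself. The deposited posterior standard deviation of the count was 2.78 on 4240 counts for Nfkb1-208 in replicate 1, and 1.21 on 1875 for Nfkb1-210. It was 31.3 on 7672 for Nfkb1-204. For the coding Nfkb1-206, whose exons are shared with other transcripts, it was 69.2 on 1380. In replicate 2 the same transcripts had 2.0 on 3169, 1.03 on 1407, 27.6 on 4953 and 59.6 on 1084. This deviation covers the assignment of reads among transcripts and not the spread between libraries.

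A selection of the exon-intron borders that these transcripts run across is shown, for the introns that hold most of the intron sequence of Nfkb1-204, Nfkb1-208, Nfkb1-210 and Nfkbie-202. Each is given 5′ to 3′ on the strand of the gene from GRCm38, with 30 exon bases in lower case and 30 intron bases in capitals.
Nfkb1 intron 10, 5′ splice site (Nfkb1-204), chr3:135612384-135612443, minus strand: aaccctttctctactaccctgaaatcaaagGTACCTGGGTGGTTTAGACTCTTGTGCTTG
Nfkb1 intron 6, 5′ splice site (Nfkb1-208), chr3:135618774-135618833, minus strand: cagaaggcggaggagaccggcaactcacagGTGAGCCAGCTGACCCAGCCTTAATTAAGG
Nfkb1 intron 5, 3′ splice site (Nfkb1-208), chr3:135618938-135618997, minus strand: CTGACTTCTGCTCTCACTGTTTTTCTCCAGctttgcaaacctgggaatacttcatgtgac
Nfkb1 intron 14, 5′ splice site (Nfkb1-210), chr3:135603680-135603739, minus strand: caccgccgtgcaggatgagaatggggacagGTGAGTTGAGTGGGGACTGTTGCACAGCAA
Nfkbie intron 2, 5′ splice site (Nfkbie-202), chr17:45558568-45558627, plus strand: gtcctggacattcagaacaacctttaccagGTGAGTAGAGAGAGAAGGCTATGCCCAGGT
Nfkbie intron 2, 3′ splice site (Nfkbie-202), chr17:45559178-45559237, plus strand: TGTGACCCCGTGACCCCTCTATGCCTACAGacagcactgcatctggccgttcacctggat
All 4 donor borders start with GT and both acceptor borders end the intron with AG, the letters of the usual splice sites.

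Nfkbie lies on chromosome 17 from 45555703 to 45563169 on the plus strand. Its retained-intron transcript Nfkbie-202 holds all 610 bases of intron 2 between the borders above. It had 59.1 TPM in replicate 1 and 36.3 TPM in replicate 2, close to the main coding transcript Nfkbie-201 with 65.9 and 36.9. The second transcript table gave 22.8 and 18.4 for Nfkbie-202 and 25.1 and 21.5 for Nfkbie-201. By expected counts Nfkbie-202 was instead the higher, with 4033 and 2352 counts against 3577 and 1903 for Nfkbie-201, so which of them led depends on the length correction.

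**Figure D3:**
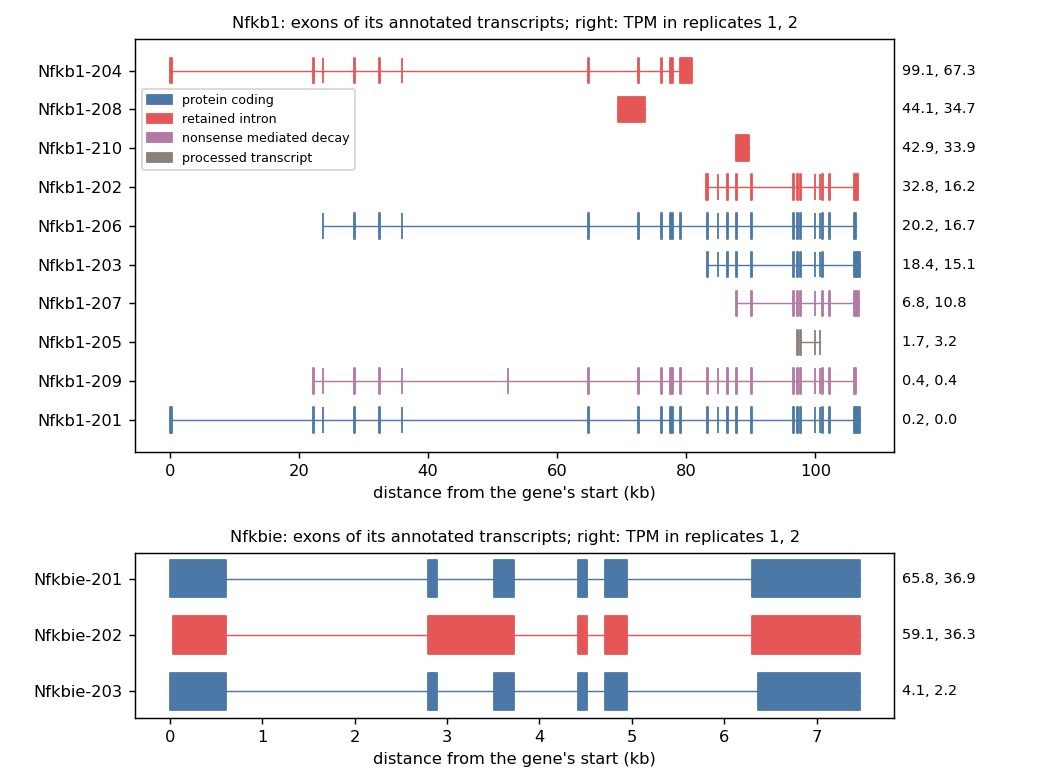
Exons of the annotated transcripts of Nfkb1 (upper panel) and Nfkbie (lower panel) against the distance from the gene's start in kb, coloured by transcript type, with the TPM in replicates 1 and 2 at the right. In Nfkb1 the 4 transcripts with the highest mean TPM are of the retained-intron type, from 99.1 and 67.3 down to 32.8 and 16.2, and Nfkb1-208 and Nfkb1-210 are single exons inside the gene, while Nfkbie-202 differs from Nfkbie-201 mainly by the retained intron 2.

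The retained-intron transcripts of the other genes were less well resolved. Relb, on chromosome 7 from 19606217 to 19629438, had its highest retained-intron transcript in Relb-206, with 16.1 TPM in replicate 1 and 10.7 TPM in replicate 2, which covers 73.0% of intron 5. In the second table Relb-206 held 1.93% and 4.38% of the gene TPM, and 2 other transcripts with intron 5 sequence, Relb-205 and Relb-208, held 20.7% and 18.5%, and 15.4% and 19.5%. The retained-intron total of Relb in the second table was 38.0% and 42.3%. Its main coding transcript by the first table, Relb-202, had 34.9 and 17.4 TPM. Nfkb2-207 holds the whole of introns 2 and 12 of its gene, of 121 and 80 bases, and Nfkbid-204 the whole of intron 7, of 114 bases. Nfkbia-202, by contrast, carries only 32 intron bases in its 701, and the coding Nfkbia-201 held 96.2% and 92.0% of its gene TPM.

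On protein-coding transcripts alone, the order of the genes changed most for Nfkb1. Its coding TPM was 38.8 in replicate 1 and 31.9 in replicate 2, a mean of 35.3 ± 4.91 (SD, n = 2), which put it in place 8 of the 10 genes, against place 3 with all transcripts. In replicate 1 it was the lowest. Nfkb2 then led the subunits in mean coding TPM, with 126 and 78.1, a mean of 102 ± 33.6 (SD, n = 2), and Rel followed with its single transcript. Rel was above Nfkb2 in replicate 2.

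The inhibitor genes then had 1235 and 722 TPM on coding transcripts in replicates 1 and 2, and the subunit genes 354 and 237. The ratio of the sums was 3.48 and 3.04. The median difference on the log2 scale was 0.91 ± 0.02 (SD, n = 2), inhibitors minus subunits, against 0.08 ± 0.28 with all transcripts. Counting coding transcripts alone was chosen after the values were seen, and it treats Rel and Nfkbib, which have no other transcript, unlike the rest. It also rests on how reads were assigned among transcripts that share exons, as those of Nfkb1 do. In the second table the coding TPM of Nfkb1 was 16.0 and 17.7, at place 9 in replicate 1 and place 8 in replicate 2.

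Other coding choices lay within the inhibitors. Nfkbiz, on chromosome 16 from 55811375 to 55838899 on the minus strand, had 78.8% of its TPM in replicate 1 and 85.6% in replicate 2 on Nfkbiz-204, whose annotated start at 55822138 lies inside the gene. Nfkbiz-204 has a coding sequence of 2184 bases, and Nfkbiz-203, with 1887 coding bases and its start at the gene's end coordinate 55838899, held 9.91% and 6.03%. Nfkbiz-201, which starts at that same position and has the same coding length as Nfkbiz-204, was listed at 0 in both libraries. Nfkbib, on chromosome 7 from 28758251 to 28767512, had 88.5% and 89.0% on Nfkbib-202 and 11.5% and 11.0% on Nfkbib-201.

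For Rela, on chromosome 19 from 5637483 to 5648130 on the plus strand, the tables differed on the transcripts. Rela-201, which encodes the full-length protein, held 86.3% of the TPM in replicate 1 and 75.0% in replicate 2 by the first table, and 39.4% and 29.5% by the second. Rela-203, the retained-intron transcript, was next by the first table. The share outside coding transcripts was 11.4% and 25.0% by the first table and 45.8% and 55.1% by the second. The transcript makeup of Rela is therefore uncertain, while its gene level was low in both tables, at place 10 in the first and 8 in the second.

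Promoters were read for the κB site, the DNA element that NF-κB dimers bind. RefSeq windows of 300 bases, 250 before and 50 after a start (GRCm38.p6), were held for 7 of the 10 genes, 11 windows in all, and Nfkbiz, Nfkb1 and Relb were not among them. A match to the 10-letter κB consensus, searched by that name on both strands with overlapping matches merged, was present in 5 of the 7 genes and 7 of the 11 windows. Over all promoters it was present in 5.14% of 27025 genes and 4.51% of 32851 windows. The genes with a match were Nfkbia, Nfkbie, Nfkbid, Nfkb2 and Rel, and the windows of Nfkbib and Rela held none. The Nfkbib window does not hold the start of Nfkbib-202, which had 88.5% of the gene TPM in replicate 1 and 89.0% in replicate 2. For Rela, transcripts starting more than 100 bases from its start held 13.8% and 25.0% by the first table. By the second table they held 60.6% and 70.5%. A match describes letters in a window, and binding was not measured here.

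Nfkbia is shown as the highest of the 10 genes, and Nfkb2 because its transcripts start at several places, 2 of which are given. Capitals mark the κB matches, and sequences run 5′ to 3′ on the strand of the gene.
Nfkbia promoter, chr12:55492598-55492897, minus strand: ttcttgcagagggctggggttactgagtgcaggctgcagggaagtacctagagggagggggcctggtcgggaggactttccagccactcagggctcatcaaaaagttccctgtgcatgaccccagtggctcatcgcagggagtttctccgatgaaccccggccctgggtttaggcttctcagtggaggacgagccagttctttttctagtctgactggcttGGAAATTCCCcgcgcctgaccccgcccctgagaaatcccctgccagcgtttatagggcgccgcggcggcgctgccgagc
Nfkb2 first promoter, chr19:46304487-46304786, plus strand: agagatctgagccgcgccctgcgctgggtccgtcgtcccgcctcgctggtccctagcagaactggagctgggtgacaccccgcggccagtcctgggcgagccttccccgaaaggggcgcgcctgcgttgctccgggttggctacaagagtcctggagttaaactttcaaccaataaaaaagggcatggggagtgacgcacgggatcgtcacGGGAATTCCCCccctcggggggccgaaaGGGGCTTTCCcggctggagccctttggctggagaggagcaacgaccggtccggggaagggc
Nfkb2 second promoter, chr19:46305445-46305744, plus strand: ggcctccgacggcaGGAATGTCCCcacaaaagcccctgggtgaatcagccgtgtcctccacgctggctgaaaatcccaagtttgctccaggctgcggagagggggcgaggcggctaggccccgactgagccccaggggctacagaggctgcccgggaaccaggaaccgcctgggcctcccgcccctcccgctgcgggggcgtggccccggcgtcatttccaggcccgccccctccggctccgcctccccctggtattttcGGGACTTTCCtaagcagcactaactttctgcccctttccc
The Nfkbia match spans bases -29 to -20 from the start, which is counted as 0. The first Nfkb2 promoter holds matches from -39 to -29 and from -11 to -2, and the second from -236 to -227 and from 10 to 19.

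Nfkb2, on chromosome 19 from 46304320 to 46312385 on the plus strand, spread its TPM over these starts. Transcripts that start within 100 bases of the first start held 27.4% of it in replicate 1 and 32.9% in replicate 2, and those at the second 39.8% and 32.6%. The highest transcripts there were Nfkb2-202 at the second start, with 56.0 and 29.0 TPM, and Nfkb2-201 at the first, with 31.5 and 25.8 TPM. The third start, whose window overlaps the second and holds only the same site that the second has from 10 to 19, had 7.57% and 7.39%, and 25.2% and 27.1% lay on transcripts farther than that from all 3. The second transcript table gave 15.4% and 17.4% for the first start and 45.4% and 41.8% for the second. The second start thus led in both libraries of the second table and in replicate 1 of the first, and both starts were nearly equal in replicate 2 of the first.

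In Nfkbid, on chromosome 7 from 30421732 to 30428746 on the plus strand, the tables differed at the start that holds the matches. Of its 3 windows only the second held κB matches, at 2 positions. The transcript that starts there, Nfkbid-202, was listed at 0 in both libraries by the first table and held 37.0% and 33.1% of the gene TPM by the second. The first start held 65.1% and 77.2% by the first table and 32.8% and 37.7% by the second. The third start, that of Nfkbid-201, held 27.8% and 16.8% by the first table and 18.6% and 18.8% by the second. The Rel window, on chromosome 11, held its match from -92 to -82, and the single Rel transcript starts there.

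The replicates were compared by the log2 ratio of replicate 2 over replicate 1 after TMM scaling of counts, over 10088 genes with a mean count of at least 50. None of the 10 genes differed beyond 2-fold between replicates, against 1.18% of all genes compared. In the gene table, the ratio of largest size was that of Nfkbia, at -0.56, with 13411 normalised counts in replicate 2 and 19821 in replicate 1. In size it lay at percentile 92.5 of all genes. Relb followed at -0.37, Nfkbie at -0.35, Nfkb2 at -0.27 and Rela at -0.21. Nfkbiz, at -0.10, Nfkbib, at -0.05, Nfkb1 and Nfkbid, at -0.03 each, and Rel, at 0.04, were nearer to equal. The second table gave a smaller ratio for Nfkbia, -0.38 at percentile 74.5, and there Relb was the largest in size at -0.39. It gave -0.21 for Nfkbiz, -0.18 for Nfkbib, -0.16 for Nfkbid, -0.08 for Nfkb1 and -0.02 for Rel.

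The ratio was negative for 9 of the 10 genes and for 49.96% of all genes compared. The signed median was -0.16 over the 10 genes and 0.0001 over all genes compared. The libraries also differed in starting amount, which cannot be told apart from the replicate. On the TPM scale all 10 genes were lower in replicate 2, with a median log2 ratio of -0.53, against -0.42 for the 8622 protein-coding genes with at least 1 TPM in both libraries. Much of the TPM gap between replicates is thus shared with the other genes, and the SDs of the TPM values include it.

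**Figure D4:**
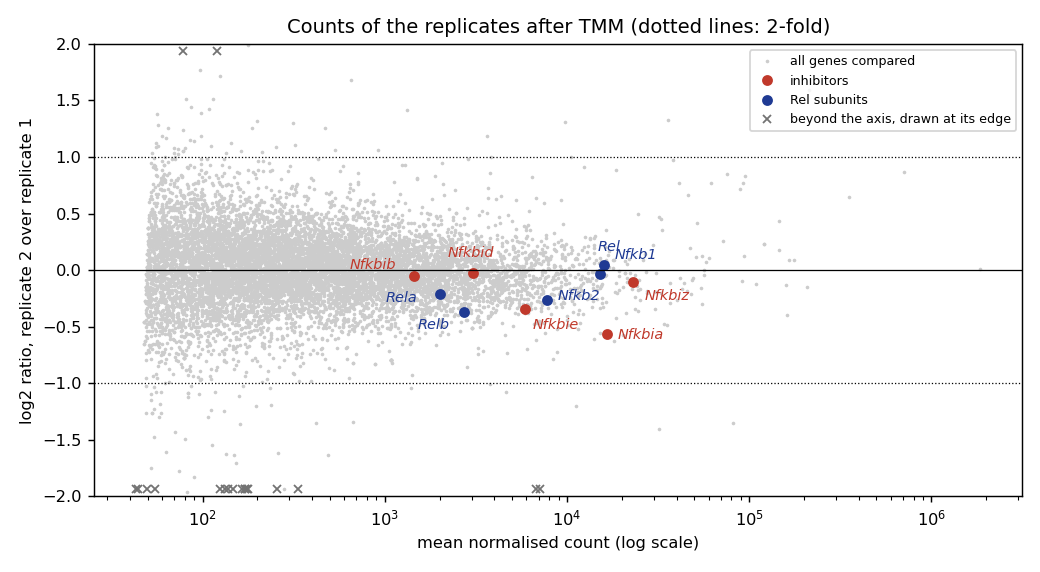
Log2 ratio of replicate 2 over replicate 1 against the mean normalised count on a log axis for 10088 genes, with inhibitors in red, Rel subunits in blue and dotted lines at 2-fold. All 10 genes lie between the dotted lines, with Nfkbia lowest at -0.56 and Rel highest at 0.04, and 19 genes beyond the axis are drawn as crosses at its edge.

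Neighbouring genes limit some of these values. Gm43430, an unverified transcribed region on the same strand from 135650670 to 135654566 of chromosome 3, lies wholly within intron 4 of Nfkb1-206 and had 71.7 TPM in replicate 1 and 53.7 TPM in replicate 2. Its reads were counted apart from Nfkb1. On the opposite strand, Sirt2 overlaps Nfkbib over 778 bases and had 60.0 and 40.5. Of the Nfkbib transcripts only Nfkbib-203 reaches that overlap, and it was listed at 0 in both libraries. Ccer2, also on the opposite strand, overlaps Nfkbib over 718 bases within the span of Nfkbib-201 and had 0.54 and 0.39. Psd overlaps Nfkb2 over 299 bases on the opposite strand and had 71.9 and 42.2, and AC114539.1 overlaps it over 1292 bases and had 27.4 and 15.6. Whether counting used strand is not given in the sources used here, so reads in these overlaps are uncertain.

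The rest of the pathway was read as 3 lists. Bcl3, the remaining IκB family member and a partner of p50 and p52 homodimers, had 39.0 TPM in replicate 1 and 22.0 TPM in replicate 2. Of the 5 other IκB relatives and modulators it was the one with at least 10 TPM in both libraries. Nfkbil1, an IκB-like gene, had 8.20 and 4.25, and Nkrf, which encodes a repressor of NF-κB target genes, was lowest at 0.58 and 0.49.

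Of the 9 genes for kinases upstream of the inhibitors and their adaptors, all had at least 1 TPM in both libraries and 4 reached 10. Ikbkb, the catalytic IκB kinase of the canonical branch, was highest by mean, at 70.8 in replicate 1 and 47.4 in replicate 2. Tab2, an adaptor of the kinase TAK1, had 61.7 and 48.6, and Tab1, another adaptor, was lowest at 1.41 and 1.09. Of the 5 genes for inhibitor ubiquitination, 3 reached a TPM of 10 in both libraries. Fbxw11, a receptor subunit of the ligase, had 39.4 and 20.9, the scaffold gene Cul1 18.7 and 10.7, and Skp1a was lowest at 4.90 and 4.41. In TPM, no gene of these lists was as high in either library as Nfkbia, Nfkbiz, Nfkbie, Nfkbid, Nfkb1, Nfkb2 and Rel were there. Ikbkb was above Nfkbib and Rela in both libraries and above Relb in replicate 2. Tab2 was above Rela in both libraries, and above Nfkbib and Relb in replicate 2. By expected counts, without length correction, Ikbkb at 4509 and 3092 and Tab2 at 4357 and 3226 were above Nfkbid at 3641 and 2534.

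**Figure D5:**
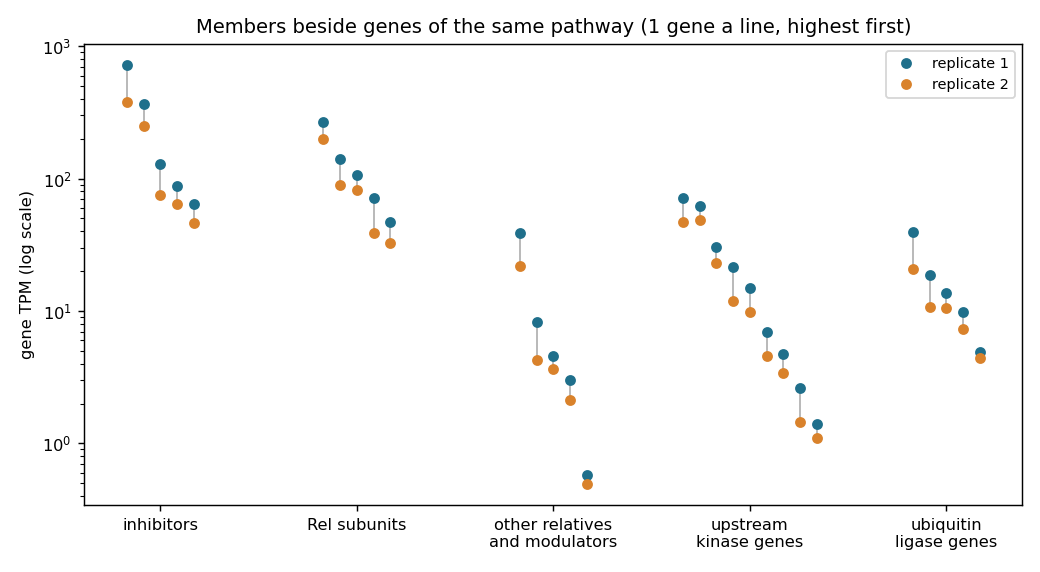
Gene TPM on a log axis in replicates 1 and 2, joined by a line for each gene, for the 5 inhibitors, the 5 Rel subunits and 3 lists of pathway genes, highest first within each list. The inhibitors run from 721 and 377 down to 63.8 and 46.4, and the subunits from 267 and 198 down to 46.6 and 32.8. By the gene table plotted here, the gene with the highest mean of the other lists, Ikbkb, is at 70.8 and 47.4.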

How the data were processed

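Total RNA-seq of the nucleoplasmic fraction of 2 macrophage libraries was analysed. The tables were made on mm10 with GENCODE M21, per the file headers. Not given in the sources used here are the aligner, the quantifiers and whether strand was used. Both kinds of estimated counts were deposited by the authors without normalisation: expected counts in the gene and first transcript tables, with posterior standard deviations, and those of a second transcript table. The TPM values were scaled to library and effective length by the authors. Deposited FPKM was not used.

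Symbols, gene and transcript types and coordinates came from GENCODE M21 on the same assembly. Second-table values were summed per gene here. Levels are TPM per library with mean and SD over both, and class medians used log2(TPM + 1). Gene TPM differed from the summed first-table transcripts by at most 0.04. For the replicate ratio, expected counts were rounded, limited to genes averaging at least 50 and scaled by TMM in edgeR 4.0.16 (R 4.3.3), with 0.5 added. The step was tested on simulated data. Other steps used numpy 2.4.6 and pandas 2.3.3. Rows that name no gene held 0.662% and 0.232% of the counts in replicates 1 and 2 and were left out of library sizes. The totals on annotated genes set the counting precision, and reads that carry no molecular identifiers may repeat a molecule. Replicates came from separate biosamples of 1 donor label. No test was run, since there is 1 group.

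The genes and all lists were chosen with earlier results of these data known. All 10 genes were named, with the 2 highest and the lowest gene of each pathway list, Bcl3, and the 2 highest transcripts of each gene. Further transcripts, the overlapping genes and named marker genes were added with their values known. The alternatives tried were the second table, CPM, TPM rescaled over protein-coding genes, a pseudocount of 0.1, the mean in place of the median, each library left out, DESeq2 1.42.0 size factors, no count filter, an added count of 5 and, chosen after seeing the data, coding transcripts alone.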

Additional observations from a re-analysis of the deposited data

How the results depend on the processing

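No paired analysis was possible because the data form 1 group. The difference of the class medians, inhibitors minus subunits, was 0.08 on the log2 scale. CPM, without length correction, gave -0.41, the mean in place of the median 0.73, and coding transcripts alone 0.91. Leaving out each library gave values from -0.11 to 0.28. The inhibitor median of 6.64 became 5.51 in the second table, 8.34 in CPM and 8.82 with TPM rescaled over protein-coding genes. The subunit median of 6.56 became 5.37, 8.74 and 8.74 under the same 3 settings, and 5.24 on coding transcripts alone. Of the 10 gene levels, 8 moved by more than their SD in the second table, whose TPM ran lower for most genes, and 3 did on coding transcripts alone. CPM and rescaled TPM, on scales of their own, moved all 10. For the share of TPM outside coding transcripts, the median over the genes was 10.6%, against 21.2% in the second table and 4.45% by expected counts. Nfkbib and Rel enter these medians with a share of 0 by annotation. Over the 2797 genes compared above, the median by the first table was 36.7% in replicate 1 and 36.2% in replicate 2. The median replicate ratio of -0.16 was -0.17 without the count filter and -0.24 in the second table, where the ratio of Rel was -0.024 and its sign reversed from 0.04. No filter, DESeq2 size factors and an added count of 5 moved no ratio of the 10 genes beyond its counting interval. The causes of these shifts were not tested. With 2 libraries, an SD is itself poorly known.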
